A study of Homo sapiens with 12 samples.

Results

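The genes described here belong to an enzyme family that conjugates androgens, among other substrates, or encode enzymes that convert steroids. They are 6 UDP-glucuronosyltransferases of the UGT2B family (UGT2B7, UGT2B10, UGT2B11, UGT2B15, UGT2B17 and UGT2B28) and 3 steroid-converting enzymes (AKR1C3, SRD5A1 and HSD17B4). The genes were chosen by name, and all 9 were among the 23228 genes of the count data. In C4.2B prostate cancer cells, UGT2B15 mRNA fell under a PI3K inhibitor, under an EZH2 inhibitor and under both, while AKR1C3 mRNA rose from near the detection limit in the arms that received the EZH2 inhibitor. SRD5A1 and HSD17B4 moved by at most 1.25-fold against DMSO in any arm.

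Polyadenylated RNA was sequenced from C4.2B, an established, castration-resistant human prostate cancer line that expresses the androgen receptor. The 12 libraries came from replicate plates of this 1 line, with 3 per arm (A, B and C). DMSO cells received vehicle, GDC cells 0.5 µM of GDC-0941, which blocks the PI3K family, GSK cells 5 µM of GSK126, which blocks the histone methyltransferase EZH2, and COMBO cells both agents. All cells were kept for 6 days in DMSO or GSK126 beforehand, so that GSK and COMBO cells had 6 days of GSK126, and the final 24 h of treatment took place in medium with 10% charcoal-stripped serum, which is depleted of steroids.

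UGT2B enzymes sit in the endoplasmic reticulum and transfer glucuronic acid from UDP-glucuronate to hydroxyl groups of steroids or, for UGT2B10, to amines. The water-soluble androgen conjugates no longer activate the androgen receptor. UGT2B15 and UGT2B17 conjugate dihydrotestosterone and its metabolites and are known as androgen-repressed genes in prostate cells. Upstream of them, AKR1C3 reduces androstenedione to testosterone, SRD5A1 is a steroid reductase that leads to dihydrotestosterone, and HSD17B4 is a peroxisomal enzyme that oxidises hydroxysteroids and also serves fatty acid oxidation.

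The 6 UGT2B genes lie within 757.9 kb of chromosome 4 (hg38, 68537173 to 69295050), in both orientations. UGT2B15 occupies 68646597 to 68670652 on the minus strand, in 6 exons. RefSeq promoter sequence on GRCh38.p14 was matched for 7 of the 9 genes. The 250 bases before the start sites of UGT2B15, UGT2B11 and UGT2B10 are shown because these 3 genes had the most UGT2B counts in DMSO, and capitals mark each match to TATTTAC, a forkhead-type motif, on either strand. They come from chr4:68670653-68670902 (minus strand), chr4:69214749-69214998 (minus strand) and chr4:68815744-68815993 (plus strand).
UGT2B15: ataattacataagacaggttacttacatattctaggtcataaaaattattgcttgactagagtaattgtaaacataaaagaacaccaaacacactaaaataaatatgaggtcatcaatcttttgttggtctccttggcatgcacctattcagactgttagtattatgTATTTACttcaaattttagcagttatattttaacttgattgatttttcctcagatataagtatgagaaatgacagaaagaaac
UGT2B11: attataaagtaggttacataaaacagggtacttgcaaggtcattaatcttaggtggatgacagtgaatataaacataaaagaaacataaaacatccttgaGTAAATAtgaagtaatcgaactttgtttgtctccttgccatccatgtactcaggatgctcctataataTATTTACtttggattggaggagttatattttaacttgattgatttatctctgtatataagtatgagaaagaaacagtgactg
UGT2B10: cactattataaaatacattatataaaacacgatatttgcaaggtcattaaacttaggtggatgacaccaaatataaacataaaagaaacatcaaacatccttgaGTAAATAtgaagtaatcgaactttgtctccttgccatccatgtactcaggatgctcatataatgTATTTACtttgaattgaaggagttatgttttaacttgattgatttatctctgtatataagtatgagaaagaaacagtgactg
UGT2B15 held 1 match, whose first base lay 83 bases before the start, and UGT2B10 and UGT2B11 held 2 each, the nearer one 82 bases before the start. The motif occurs in 2.67% of the 35116 promoters of 300 bases (250 before and 50 after the start), and in none of the UGT2B7, AKR1C3, SRD5A1 and HSD17B4 promoters. UGT2B15 also held 1 match to TGTTTAC, the other forkhead form (3.42% of promoters), and 1 to AGAACA, a half-site of the androgen receptor (14.8%). The longest run of identical bases was 55 between UGT2B10 and UGT2B11 and 25 between UGT2B11 and UGT2B15. UGT2B15 and UGT2B7 had 0 CpG dinucleotides and UGT2B10 and UGT2B11 had 2 each, where the median promoter had 14. The UGT2B15, UGT2B10 and UGT2B11 promoters held 30.3%, 31% and 33% G and C. The shares of promoters with a motif were not matched for base composition. A motif match describes the letters only.

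The libraries held 8785218 to 44437751 counts in genes, with DMSO C the deepest. Where a library listed 0 counts, up to 3 remain possible, or 0.0675 to 0.341 CPM (counts per 1000000 in the library). Levels are CPM with library sizes scaled by TMM. Intervals and floors cover counting error only. Tests were run across 14189 genes in edgeR's quasi-likelihood fit, and a gene was called at a Benjamini-Hochberg adjusted p under 0.05. The comparisons with DMSO share the same 3 DMSO libraries.

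Of the 9 genes, UGT2B15, AKR1C3, SRD5A1 and HSD17B4 passed the filter on low counts and were tested, and UGT2B7, UGT2B10, UGT2B11, UGT2B17 and UGT2B28 were not. AKR1C3 passed only through the GSK and COMBO libraries, where it is high, so it had to differ from DMSO and GDC. For AKR1C3 the share of tested genes that were called carries no weight, and its calls against those arms are descriptions only. In GDC against DMSO, 1 gene was called higher (HSD17B4, where 20% of all tested genes were higher) and 1 lower (UGT2B15, where 20% were lower), with 40.1% called in all. In GSK against DMSO, 2 were higher (AKR1C3 and HSD17B4, background 40%) and 1 lower (UGT2B15, background 35.7%), with 75.7% of all genes called. In COMBO against DMSO, 3 were higher (AKR1C3, SRD5A1 and HSD17B4, background 43.3%) and 1 lower (UGT2B15, background 39.2%), with 82.5% called. COMBO against GDC had 1 higher (AKR1C3, background 37.9%) and 1 lower (UGT2B15, background 38%), with 76% called, and COMBO against GSK had 1 higher (SRD5A1, background 19%) and 1 lower (HSD17B4, background 26.9%), with 45.9% called. The interaction, which is the change with GDC-0941 under GSK126 less the change with it in vehicle on the log2 scale, was called for 0 genes in the positive direction (background 4.86%) and 1 in the negative (HSD17B4, background 16.5%), where 21.4% of all genes were called. With most genes called in GSK and COMBO, being called there does not set these enzymes apart, and the size and direction of each change are the measurements. The share of all genes whose libraries do not overlap between arms was not counted. A lack of overlap therefore sets none of these enzymes apart either.

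UGT2B15 was the main UGT2B transcript, and every inhibitor arm lay below DMSO. It was counted at 4.74, 5.97 and 4.84 CPM in DMSO A, B and C and at 3.0, 3.39 and 2.48 CPM in GDC. It was counted at 2.31, 1.26 and 2.80 CPM in GSK and at 1.57, 1.73 and 2.19 CPM in COMBO. The libraries of each treated arm were all lower than the lowest DMSO library (bulk RNA cannot tell fewer cells with a transcript from less of it per cell), COMBO was lower than all of GDC, and GSK overlapped both GDC and COMBO. DMSO averaged 5.18 ± 0.686 CPM, GDC 2.96 ± 0.455, GSK 2.12 ± 0.783 and COMBO 1.83 ± 0.320 (SD, n = 3).

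UGT2B15 fell by 0.80 on the log2 scale in GDC (SE 0.19, adjusted p = 0.00238), or 1.74-fold. It fell by 1.30 in GSK (SE 0.22, adjusted p = 2.08e-05), or 2.47-fold, and by 1.52 in COMBO (SE 0.20, adjusted p = 7.47e-07), or 2.87-fold. COMBO differed from GDC by -0.72 (SE 0.23, adjusted p = 0.00905), a call that was lost without GDC B (-0.56, adjusted p = 0.0712). COMBO and GSK did not differ past the threshold (-0.22, SE 0.26, adjusted p = 0.533), with a value of 0.07 without GSK C. The interaction of 0.59 (SE 0.33, adjusted p = 0.221) was not past the threshold, so a departure of the combination from additivity on the log2 scale was not detectable at this depth. The 3 calls against DMSO held under every change of scaling, filter, tool or library that was tried, save that the GDC change is under a log2 fold change of 1.

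UGT2B15 reads may be shared with its nearest paralog. Of all 50-base stretches of its longest transcript, 27.1% occur exactly in another annotated gene, nearly all of them in UGT2B17 (26.7%), and with 75 bases the share is 17.9%. Reads that aligned to several places made up 8.05% to 9.03% of reads and were not assigned to genes. UGT2B17 (39.24 kb on the minus strand, 68537173 to 68576413) was listed at 0 counts in all 12 libraries, and 23.3% of its 50-base stretches occur in another gene, nearly always UGT2B15. Over the 3 libraries of an arm, 0 counts allow up to 0.0405 CPM for DMSO, 0.0675 for GDC, 0.0928 for GSK and 0.0604 for COMBO. Both enzymes conjugate dihydrotestosterone, and of this pair only UGT2B15 had counts. The floors cover counting error only. Whether the transcript was absent, or unassigned reads or the annotation left UGT2B17 at 0, was not tested.

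The other UGT2B genes were near the floor, and UGT2B11 was the next most counted. DMSO A, B and C had 2, 14 and 25 of its counts, GDC had 4, 1 and 8, GSK had 2, 4 and 7, and COMBO had 1, 3 and 2. Scaled to depth, the COMBO libraries (0.0581, 0.133 and 0.146 CPM) were all below those of DMSO (0.210, 0.774 and 0.602 CPM) and of GSK, while GDC overlapped both. The ratio of pooled depth-scaled counts to DMSO was 0.189 in COMBO (exact 95% counting interval 0.0656 to 0.448), 0.516 in GDC (0.254 to 0.983) and 0.653 in GSK (0.321 to 1.24). Without DMSO C, COMBO stood at 0.193 (0.0619 to 0.520), and the GDC interval included 1 (0.234 to 1.17). These intervals leave out the spread between plates. When no filter on low counts was used, the COMBO change of UGT2B11 was -2.36 on the log2 scale (edgeR, adjusted p = 0.000207), and DESeq2 gave -2.35 (adjusted p = 0.0134). The edgeR fit with no filter gave much smaller p-values at similar changes. For UGT2B15 in COMBO the adjusted p went from 7.47e-07 (at -1.52) to 1.29e-16 (at -1.575). The p-values of that fit therefore carry little weight. UGT2B11 shares 47.8% of its 50-base stretches with other genes, the highest share of the 9, so its counts are uncertain.

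UGT2B10, which conjugates nicotine and other amines, had 1, 2 and 11 counts in DMSO and 2 counts in the 9 treated libraries. Its pooled ratio to DMSO was 0.116 in GDC (0.00275 to 0.765) and 0.0923 in COMBO (0.00218 to 0.607), and 0 counts in GSK allow a ratio of up to 0.621. The libraries of each treated arm lay below all DMSO libraries in CPM, but this separation is not resolved at this depth. The 0 counts allow up to 0.341 CPM in GSK A, 0.255 in GDC A and 0.189 in COMBO A. These floors are above DMSO A (0.105 CPM) and DMSO B (0.111 CPM). DMSO C holds 11 of the 14 DMSO counts, and without it all of these intervals included 1. With no filter on low counts, edgeR gave UGT2B10 a log2 fold change of -4.79 in GSK (adjusted p = 0.0118) and of -3.00 for COMBO (adjusted p = 0.0164), whereas DESeq2 gave -3.36 (adjusted p = 0.14) and -3.06 (adjusted p = 0.170). As for UGT2B11, the p-values of the edgeR fit with no filter carry little weight. A fitted change against an arm at 0 counts is no bound. UGT2B28 had 10 counts in DMSO and 2 in each treated arm, and UGT2B7 had 4, 1, 3 and 1 counts in DMSO, GDC, GSK and COMBO. The intervals of UGT2B28 and UGT2B7 included 1 in every arm, so a difference was not detectable at this depth.

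A sum over the family does not depend on how reads were split between its genes, as far as they were counted. The 6 genes together had 423, 143, 88 and 106 counts in DMSO, GDC, GSK and COMBO, of which UGT2B15 took 83.7% (95% Wilson interval 79.9% to 86.9%), 88.1% (81.8% to 92.4%), 79.5% (70.0% to 86.7%) and 90.6% (83.5% to 94.8%). The sum came to 5.26, 6.91 and 5.97 CPM for DMSO, 3.54, 3.57 and 3.02 for GDC, 2.75, 1.82 and 3.39 for GSK, and 1.63, 2.0 and 2.40 for COMBO. As for UGT2B15 alone, the treated libraries were all below DMSO, COMBO was below GDC and GSK overlapped both. Against DMSO, on the log2 scale, GDC gave a change of -0.86 (SE 0.17, adjusted p = 0.000557), GSK gave -1.22 (SE 0.19, adjusted p = 1.00e-05) and COMBO gave -1.62 (SE 0.18, adjusted p = 7.22e-08). COMBO differed from GDC by -0.76 (SE 0.21, adjusted p = 0.00300). Against GSK the difference of -0.40 (SE 0.23, adjusted p = 0.170) was not past the threshold, and it was -0.61 (adjusted p = 0.0461) without GSK B.

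**Figure D1:**
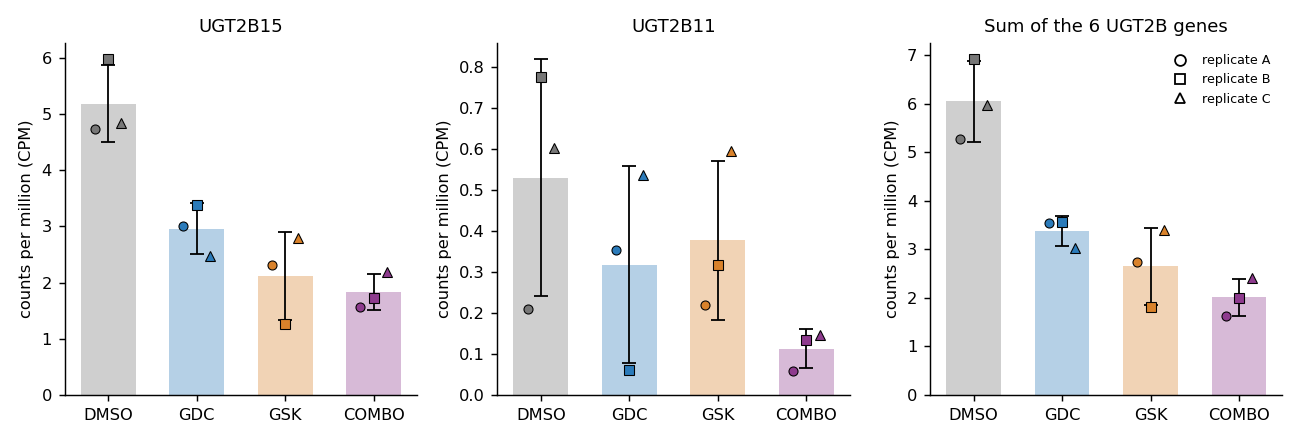
Levels in CPM of UGT2B15, UGT2B11 and the sum of the 6 UGT2B genes in each library (symbols, replicates A to C), with bars for the mean and error bars for the SD of 3 libraries. The UGT2B15 mean goes from 5.18 CPM in DMSO to 1.83 CPM in COMBO with no treated library reaching the DMSO range, while the UGT2B11 libraries of GDC and GSK overlap those of DMSO.

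AKR1C3, the enzyme that makes testosterone from androstenedione, was near the floor in DMSO and GDC and high in both arms with GSK126. It had 3, 3 and 5 counts in DMSO A, B and C and 1, 0 and 6 in GDC, but 34, 67 and 51 in GSK and 92, 110 and 53 in COMBO. DMSO averaged 0.201 ± 0.102 CPM, GDC 0.164 ± 0.212, GSK 4.45 ± 0.788 and COMBO 4.69 ± 0.758 (SD, n = 3). Every GSK and COMBO library (3.74 to 5.34 CPM) lay above every DMSO and GDC library (0 to 0.402 CPM), and within each of these pairs of arms the libraries overlapped. The log2 fold change was 4.75 in GSK (SE 0.38), 4.82 in COMBO (SE 0.36) and 4.78 in COMBO against GDC (SE 0.40). These are descriptions only, since AKR1C3 passed the filter on low counts only through the GSK and COMBO libraries. The value against GDC was 6.79 without GDC C and 4.15 without GDC B. The size rests on 11 DMSO counts, which give a pooled ratio of 28.5 in GSK (exact 95% counting interval 15.5 to 58.2) and 29.95 in COMBO (16.5 to 60.8), or 20.8 and 21.9 without DMSO C.

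For GDC-0941, the AKR1C3 data hold little information. On the log2 scale GDC and DMSO differed by 0.04 (SE 0.78, adjusted p = 0.975), whose sign turned with the scaling and the libraries used, and the pooled ratio of 1.04 had an interval of 0.341 to 2.93. GDC C supplied 6 of the 7 GDC counts, and without it the log2 fold change was -1.97 (adjusted p = 0.192). Where the gene was well counted, adding GDC-0941 to GSK126 gave a change of 0.07 (SE 0.22, adjusted p = 0.812).

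AKR1C3 lies on chromosome 10 (hg38, 5035354 to 5107686, plus strand), within a 144.4 kb stretch that also holds its paralogs AKR1C1 and AKR1C2. RefSeq gives it a pair of start sites, whose 250 upstream bases are shown because AKR1C3 had the largest fold change of the 4 tested genes, first chr10:5048531-5048780 and then chr10:5094164-5094413, both on the plus strand.
AKR1C3 start 1: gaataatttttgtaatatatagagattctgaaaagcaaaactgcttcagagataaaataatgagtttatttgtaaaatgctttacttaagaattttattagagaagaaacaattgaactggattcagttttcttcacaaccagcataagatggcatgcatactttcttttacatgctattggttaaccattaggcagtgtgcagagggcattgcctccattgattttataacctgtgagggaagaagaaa
AKR1C3 start 2: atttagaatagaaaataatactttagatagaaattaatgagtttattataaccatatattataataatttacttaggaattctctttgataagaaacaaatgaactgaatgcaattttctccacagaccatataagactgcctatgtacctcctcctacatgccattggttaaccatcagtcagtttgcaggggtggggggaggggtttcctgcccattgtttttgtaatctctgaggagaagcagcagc
Neither holds a CpG dinucleotide, and neither promoter of 300 bases had a match on either strand to those forkhead and androgen receptor motifs or to the antioxidant response element core (13.3% of promoters), spelled TGACNNNGC. The longest identical run that either shares with the AKR1C1 or AKR1C2 upstream sequence was 19 bases, whereas AKR1C1 and AKR1C2 share a run of 245 of 250 bases. Of the 50-base stretches of the AKR1C3 transcript, 15.6% occur in another gene, mostly in AKR1C2 (12.5%).

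Because of that sharing, AKR1C1 and AKR1C2, which reduce progestins and dihydrotestosterone to less active forms, were examined beside AKR1C3. They were chosen after their values were seen. AKR1C2 had 1.05, 0.608 and 0.578 CPM for DMSO, 0.442, 0.308 and 0.0671 for GDC, 5.28, 6.88 and 7.20 for GSK, and 5.40, 4.30 and 3.93 for COMBO. AKR1C1 averaged 0.182 ± 0.0251 CPM for DMSO, 0.0884 ± 0.153 for GDC, 3.02 ± 0.232 for GSK and 1.86 ± 0.306 for COMBO (SD, n = 3). In each of these 3 genes, the GSK and COMBO libraries thus lay above every DMSO and GDC library. The share of all genes that separate this way was not counted. The log2 fold changes in GSK, 3.29 for AKR1C2 and 4.07 for AKR1C1, are descriptions only, since like AKR1C3 these genes passed the filter on low counts only through the GSK and COMBO libraries.

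The values of the paralogs for GDC-0941 are given beside those of AKR1C3. In COMBO against GSK, AKR1C1 changed by -0.70 (SE 0.25, adjusted p = 0.0275) and AKR1C2 by -0.52 (SE 0.18, adjusted p = 0.0267), beside 0.07 (SE 0.22) for AKR1C3. In that comparison 45.9% of all tested genes were called. In GDC against DMSO, where 40.1% were called, AKR1C2 changed by -1.32 (SE 0.48, adjusted p = 0.0356), on 11 GDC counts. AKR1C1 was not past the threshold there (-1.21, SE 0.85, adjusted p = 0.274), and AKR1C3 was at 0.04 (SE 0.78). Whether the genes differ from each other in these changes was not tested.

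**Figure D2:**
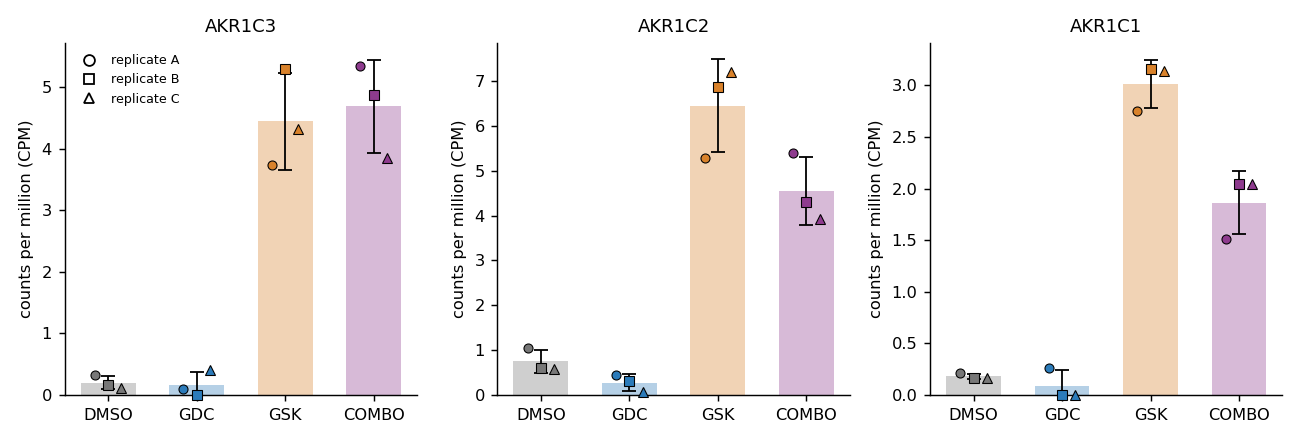
Levels in CPM of AKR1C3, AKR1C2 and AKR1C1 in each library (symbols, replicates A to C), with the mean as bars and the SD of 3 libraries as error bars. AKR1C3 is at 0 to 0.402 CPM in the 6 DMSO and GDC libraries and at 3.74 to 5.34 CPM in the 6 GSK and COMBO libraries, and AKR1C1 and AKR1C2 have a lower mean in COMBO than in GSK.

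SRD5A1, the steroid reductase expressed in castration-resistant tumours, was well counted and changed little. It was counted at 29.4, 31.0 and 30.5 CPM in DMSO and 33.2, 34.3 and 33.9 in GDC. It was counted at 31.4, 30.6 and 29.9 CPM in GSK and 32.4, 38.5 and 36.4 in COMBO. GDC and COMBO libraries lay above all DMSO libraries, whereas GSK overlapped DMSO. The log2 fold change was 0.24 in COMBO (SE 0.064, adjusted p = 0.00198), or 1.18-fold, and 0.23 in COMBO against GSK (SE 0.068, adjusted p = 0.0102), a call that was lost without COMBO B (0.16, adjusted p = 0.0740).

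In GDC the SRD5A1 value of 0.16 (SE 0.066, adjusted p = 0.0660) missed the threshold, and it passed with library totals as the scaling (0.19, adjusted p = 0.0234). In GSK it was 0.01 (SE 0.069, adjusted p = 0.895), which became -0.02 with DESeq2 size factors and 0.16 (adjusted p = 0.0326) with library totals. Library totals moved the median over all tested genes as well, from 0.06 to 0.21 in GSK, 0.05 to 0.26 in COMBO and 0.02 to 0.19 in COMBO against GDC. COMBO against GDC gave 0.08 (SE 0.065, adjusted p = 0.259), which was 0.18 (adjusted p = 0.0164) without COMBO A. SRD5A1 spans 40.96 kb of chromosome 5 (6633427 to 6674386, plus strand), and its promoter has 33 CpG dinucleotides, more than 82.8% of promoters.

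HSD17B4, the most abundant of the 9 transcripts, was highest in GSK. It was counted at 237.7, 235.4 and 236.5 CPM in DMSO A, B and C and 255.4, 268.9 and 262.4 in GDC. It was counted at 299.1, 292.8 and 292.5 CPM in GSK and 249.6, 266.6 and 249.2 in COMBO. No treated library reached down to DMSO, and the GSK libraries lay above all others, while GDC and COMBO overlapped. HSD17B4 rose by 0.32 on the log2 scale in GSK (SE 0.041, adjusted p = 8.50e-07), or 1.25-fold, and COMBO differed from GSK by -0.21 (SE 0.041, adjusted p = 0.000369).

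The HSD17B4 change was 0.15 for GDC (SE 0.041, adjusted p = 0.00685) and 0.11 for COMBO (SE 0.041, adjusted p = 0.0186). Neither call was stable. The GDC call was lost with no filter on low counts and without DMSO A, B or C, GDC B or C, or GSK A or B (0.09 to 0.12, adjusted p from 0.0517 to 0.252). The COMBO call was lost with DESeq2, with its size factors, with no filter, with only the compared arms in the fit, and without DMSO A, B or C or COMBO B or C (0.06 to 0.11, adjusted p from 0.0505 to 0.339). COMBO against GDC, at -0.04 (SE 0.041, adjusted p = 0.392), was 0.13 (adjusted p = 0.00406) with library totals.

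The HSD17B4 interaction was -0.36 (SE 0.058, adjusted p = 0.000172). On the log2 scale, GDC-0941 thus went with a rise of 0.15 without GSK126 and with a fall of 0.21 in its presence. Under 18 of 19 alternatives the interaction held, at -0.38 to -0.26 (adjusted p from 7.77e-06 to 0.00833), and it is under an absolute value of 1. HSD17B4 spans 184.7 kb of chromosome 5 (119452465 to 119637199, plus strand) and overlaps FAM170A, another counted gene. Its promoter has 19 CpG dinucleotides, and 0.295% of its 50-base stretches occur elsewhere.

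**Figure D3:**
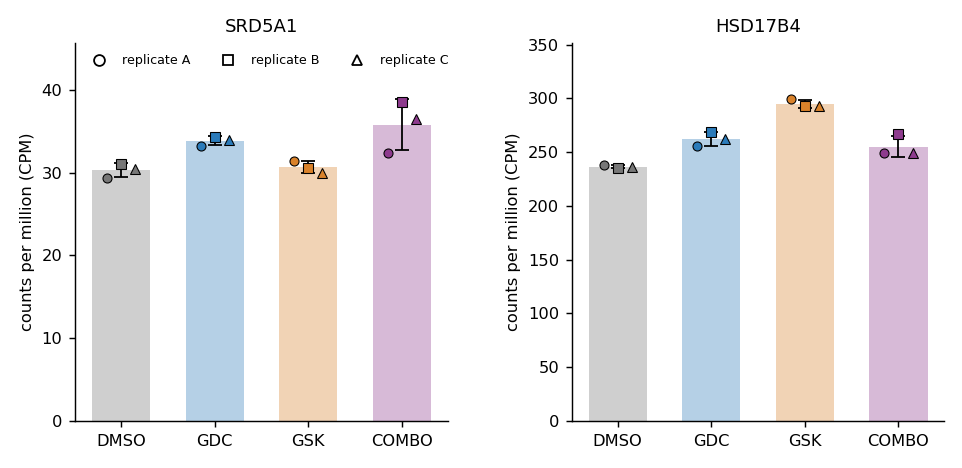
Levels in CPM of SRD5A1 and HSD17B4 in each library (symbols, replicates A to C), with the mean as bars and the SD of 3 libraries as error bars. SRD5A1 stays between 29.4 and 38.5 CPM, and the HSD17B4 libraries of GSK, at 292.5 to 299.1 CPM, lie above those of the other arms.

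**Figure D4:**
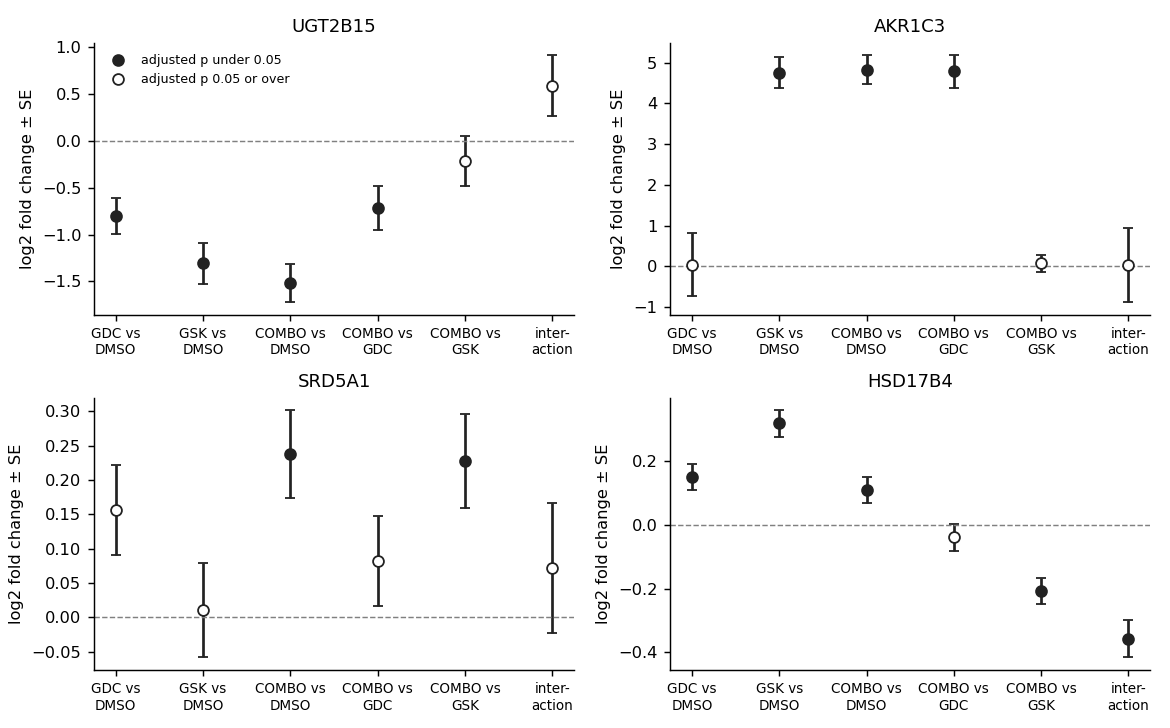
Log2 fold change with its SE (edgeR's quasi-likelihood fit of 12 libraries) of the 4 tested genes in the comparisons between arms and the interaction, with a separate scale for each gene. Filled points have an adjusted p under 0.05. UGT2B15 is at -0.80, -1.30 and -1.52 in GDC, GSK and COMBO against DMSO and AKR1C3 at 0.04, 4.75 and 4.82, while all HSD17B4 and SRD5A1 values lie within -0.36 and 0.32. The sign of AKR1C3 in GDC, of SRD5A1 in GSK and of HSD17B4 in COMBO against GDC depends on the scaling.

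Levels can be compared between genes only per length. As RPKM (CPM per kb of exon) over the union of exons, the order in DMSO was HSD17B4 (9.50 ± 0.0454), SRD5A1 (3.97 ± 0.110), UGT2B15 (2.43 ± 0.322) and UGT2B11 (0.224 ± 0.122), followed by UGT2B28, UGT2B10, AKR1C3 and UGT2B7 at 0.0142 to 0.0779 RPKM (SD, n = 3), and UGT2B17 at 0. The libraries of the first 3 genes did not overlap each other or those of UGT2B11, and the neighbours below UGT2B11 did overlap. GDC kept HSD17B4, SRD5A1, UGT2B15 and UGT2B11 in this order, with UGT2B15 at 1.39 ± 0.213 RPKM. AKR1C3 ranked behind SRD5A1 by mean in GSK (1.14 ± 0.202 RPKM) and COMBO (1.20 ± 0.194), beside UGT2B15 at 0.995 ± 0.367 and 0.856 ± 0.15, and on this length the libraries of these 2 genes overlapped in both arms. The order depends on the length used. It matters most for HSD17B4, whose exons cover 24901 bases in union and 2628 in the Ensembl canonical transcript, on which it stood at 112.2 RPKM in GSK in place of 11.8. On its own canonical length AKR1C3 was at 3.75 ± 0.664 RPKM in GSK and 3.96 ± 0.639 in COMBO (SD, n = 3), while UGT2B15 kept its values, so that the means stood apart by more than these SDs and AKR1C3 came nearer to SRD5A1 (4.36 and 5.08).

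**Figure D5:**
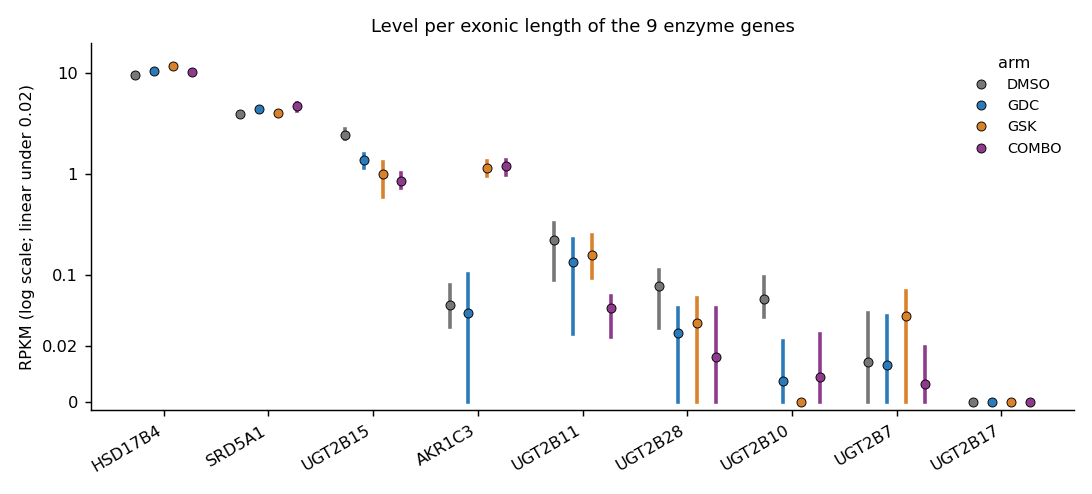
Level per length of the union of exons (RPKM, logarithmic axis that is linear under 0.02) of the 9 genes in the 4 arms. Points are means and vertical lines run from the lowest to the highest of 3 libraries, and AKR1C3 reaches the range of UGT2B15 only in GSK and COMBO, at 1.14 and 1.20 RPKM.

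The enzymes that work beside the UGT2B family were examined as lists of named genes. Their counts of called genes are to be read against all tested genes, of which 20% were higher and 20% lower in GDC. In GSK 40% were higher and 35.7% lower, and for COMBO the shares were 43.3% higher and 39.2% lower. UDP-glucuronate, the sugar donor of all UGT enzymes, is made by UGDH, which had the largest change in GSK and COMBO among the 5 tested genes of its supply and removal. UGDH averaged 102.4 ± 2.13 CPM for DMSO, 92.3 ± 1.19 for GDC, 54.8 ± 0.771 for GSK and 50.7 ± 2.72 for COMBO (SD, n = 3). Its log2 fold change was -0.15 for GDC (SE 0.048, adjusted p = 0.0181), -0.90 for GSK (SE 0.051, adjusted p = 3.40e-12) and -1.01 for COMBO (SE 0.049, adjusted p = 1.32e-13). In COMBO, 0 of the 5 genes were higher and 2 lower (UGDH and, at -0.27, UXS1, which uses up UDP-glucuronate), with a list median of -0.04 beside 0.05 for all tested genes. GUSB, the glucuronidase that splits glucuronides, was at 0.09 in COMBO and did not pass the threshold there.

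Of the 16 other UDP-glucuronosyltransferases, 2 were tested, and in COMBO 1 was higher and 1 lower. UGT8, which attaches galactose to ceramide, fell by 0.90 on the log2 scale (SE 0.14, adjusted p = 7.86e-06). UGT1A10 was named because it was the only other gene tested, and its mean log2 CPM was under 2. Its log2 fold change was 2.44 with GSK126 alone and 1.63 with both agents. Which arms carried it past the filter on low counts was not examined, so its call and these values are descriptions only. The UGT1A genes share their last exons, so their counts are uncertain. UGT2B4, a further family gene of the cluster, had 1 to 4 counts per arm.

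Of 9 genes for steroid sulfation, the other route of conjugation, 7 were tested, with 2 higher and 2 lower in COMBO and a median of -0.05. SULT2B1, a sulfotransferase for hydroxysteroids and cholesterol, went from 12.6 to 8.15 CPM on average (log2 fold change -0.63, SE 0.093, adjusted p = 3.54e-06), and SULT1A1, a phenol sulfotransferase, from 6.26 to 9.81 CPM (0.61, SE 0.15, adjusted p = 0.000877). In GDC 0 of the 7 were called (40.1% of all tested genes were) and in GSK 3, of which 2 were higher (75.7% called).

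Of 11 genes of androgen and estrogen synthesis, 8 were tested, with 2 higher and 4 lower in COMBO (82.5% of all tested genes were called) and a median of -0.20, beside 0.05 for all tested genes. The largest falls among the well counted genes were those of CYB5A (cytochrome b5, a cofactor of the CYP17A1 lyase reaction) at -0.86 (SE 0.047, adjusted p = 9.42e-13) and POR (cytochrome P450 reductase) at -0.62 (SE 0.067, adjusted p = 3.65e-08). Both also had a negative interaction, at -0.49 (adjusted p = 2.38e-05) and -0.29 (adjusted p = 0.0349). Other genes of the list went the other way. HSD3B1, a hydroxysteroid dehydrogenase of steroid synthesis named here after its values were seen, rose by 1.71 in GSK (adjusted p = 7.08e-10), with 0.32 in COMBO (adjusted p = 0.0533) and an interaction of -1.14 (adjusted p = 0.000843). Its paralog HSD3B2, likewise chosen after its values were seen and counted at a low level, had values of 3.97 in GSK and 2.24 in COMBO. HSD3B2 is among the 2 genes called higher in COMBO. Which arms carried it past the filter on low counts was not examined, so its call and values are descriptions only. CYP17A1 itself did not pass the filter on low counts.

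Of 22 other hydroxysteroid and keto reductases, AKR1C1 and AKR1C2 included, 14 were tested, with 5 higher and 2 lower in GDC, 6 higher and 5 lower in GSK, and 6 higher and 5 lower in COMBO. The 11 of 14 called in COMBO stand beside 82.5% of all tested genes. HSD11B2, which inactivates cortisol, rose by 1.17 in COMBO (SE 0.065, adjusted p = 1.29e-12), from 25.5 to 58.5 CPM on average. HSD17B11, a short-chain dehydrogenase that acts on androstanediol, rose with GDC-0941, by 0.88 for GDC (SE 0.088, adjusted p = 2.78e-07) and 0.97 for COMBO (SE 0.085, adjusted p = 1.67e-09), and in GSK its value was -0.12 (SE 0.10, adjusted p = 0.302). SRD5A3, a relative of SRD5A1 picked after its values were seen, fell by 0.57 in COMBO (adjusted p = 7.94e-09), opposite in sign to SRD5A1.

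Of 12 androgen receptor readouts, 11 were tested, and 10 were higher and 0 lower in GDC, 10 higher and 1 lower in GSK, and 10 higher and 1 lower in COMBO. The list medians were 0.77, 0.71 and 1.27 on the log2 scale, beside 0.02, 0.06 and 0.05 for all tested genes. ACPP, the secreted prostatic acid phosphatase, averaged 28.1 CPM for DMSO, 54.8 for GDC, 243 for GSK and 434 for COMBO, and its log2 fold change in COMBO was 3.93 (SE 0.063, adjusted p = 8.85e-21). TMPRSS2 rose by 2.23 in COMBO (SE 0.091, adjusted p = 7.99e-15). The gene that was lower in GSK and COMBO was FKBP5, at -1.07 and -1.49.

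The chromosome 4 neighbourhood gave few measurable genes. Of 25 other counted genes that start within 1 Mb of the UGT2B span, 3 were tested, with 0 higher and 2 lower in COMBO. UBA6, a ubiquitin-activating enzyme, changed by -0.56 for GSK (SE 0.059, adjusted p = 4.25e-08) and -0.55 for COMBO (SE 0.057, adjusted p = 2.28e-08). ODAM was higher in GSK (0.59, SE 0.13, adjusted p = 0.000480) and lower in COMBO (-0.63, SE 0.14, adjusted p = 0.000400), and YTHDC1 was at 0.05 in COMBO, short of the threshold.

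Over the 12 libraries, the genes whose log2 CPM followed each enzyme most closely were listed among 11291 genes. For UGT2B15 they were PUS3 (Pearson's r = 0.97), ATP5SL (0.95) and C6orf132 (0.95), and for AKR1C3 they were CA1 (0.99), NACC2 (0.99) and GNAO1 (0.99). SRD5A1 was followed by ST13 (0.92), PABPC1 (0.92) and CCNY (0.90), and HSD17B4 by DGAT2 (0.95), RPL6 (0.95) and ANXA6 (0.94). The libraries fall into 4 arms and share depth and scaling, so these values describe the arm means more than 12 separate points.

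Marker genes matched the labelled cell type. All 9 luminal prostate markers were above 1 CPM in every arm, with summed levels of 3389 to 3603 CPM in DMSO and 5429 to 5816 in COMBO, and 0 of 3 basal markers were. Of 5 hepatocyte markers, listed because liver is rich in UGT2B enzymes, only TTR was above 1 CPM on average, FGB was at 0 counts in all libraries, and the summed level was 4.63 to 5.53 CPM in DMSO and 8.24 to 9.66 in GSK. Of 5 stromal markers, 1 was above 1 CPM in DMSO and 2 in GSK and COMBO, COL1A2 had 1 count over all libraries, and the summed level, mostly COL1A1, was 10.3 to 11.7 CPM in DMSO, 26.1 to 38.3 in GSK and 29.4 to 48.4 in COMBO. Of 4 immune markers only CD68 was above 1 CPM, CD3E was at 0, and the sum was 4.84 to 5.70 CPM in DMSO and 6.92 to 9.56 in GSK. The part of these genes in the AKR1C3 change was not tested.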

How the data were processed

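The authors aligned reads to hg38 with STAR and counted them per gene symbol with HTSeq. The deposited counts are whole reads, not normalized. A second deposited table holds normalized signal, that is, the authors' counts divided by DESeq2 size factors, and was used only to check the counts. Versions, annotation and use of strand are not given in the sources used here, so overlapping genes are uncertain. The 5 HTSeq summary lines (23.7% to 33.7% of reads) were left out, and 0 columns mapped to no library. Their share followed the arm, with 23.7% to 24.6% in DMSO, 25.7% to 26.2% in GDC, 28.8% to 29.7% in GSK and 31.5% to 33.7% in COMBO. TMM factors were 0.932 to 0.936 in DMSO and 1.066 to 1.088 in COMBO. The part of this shift in the small changes of SRD5A1 and HSD17B4 was not tested.

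Counts were tested with edgeR 4.0.16 in R 4.3.3 (TMM, filterByExpr, glmQLFit, glmQLFTest, two-sided, Benjamini-Hochberg adjustment over 14189 genes), with all 12 libraries in 1 fit and no covariate, where the study used DESeq2. The script was tested on simulated data. By the paper's methods, the replicate plates were seeded after the 6 days of pretreatment. The p-values thus measure the spread between plates of 1 line. They may leave out the spread between pretreated cultures, whose number per arm is not stated. The common biological coefficient of variation was 0.0499. The genes and lists were chosen with earlier results of these data known. All 9 genes are named. From each list the text names the 2 called genes with the largest absolute change in COMBO whose mean log2 CPM reached 2, and for likeness the 3 best correlated genes (prior count 2). Positions are from GENCODE 44 on hg38, promoters from RefSeq. Alternatives were DESeq2 1.42.0, its size factors, library totals, 2 filters, a log2 fold change of at least 1, the compared arms alone, a replicate block, each library left out, a summed UGT2B family and other gene lengths. Canonical lengths and counting intervals were added after seeing the data.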

Additional observations from a re-analysis of the deposited data

Results flagged for a closer look

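The change of HSD17B4 with GDC-0941 differed between cells with and without GSK126. The difference, tested as the interaction in edgeR's quasi-likelihood fit, was -0.36 on the log2 scale (SE 0.058, adjusted p = 0.000172), and 21.4% of all tested genes passed the threshold in this comparison. All 3 GDC libraries lay above the DMSO libraries and all 3 COMBO libraries below the GSK libraries.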

How the results depend on the processing

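The numbers of genes called moved as follows. For GDC against DMSO, 1 gene was higher, but 2 with library totals, 0 with no filter and 0 to 1 without a library. For COMBO against DMSO, 3 were higher, but 2 with DESeq2, its size factors, no filter or only the compared arms, and 2 to 3 without a library. In GSK 2 were higher, but 3 with library totals. For COMBO against GDC, 3 were higher with library totals, 2 with a filter at 1 CPM and 1 to 2 without a library, and 0 to 1 lower. For COMBO against GSK, 0 to 1 were higher without a library. With no filter, 2 were lower in GSK and 3 in COMBO, and with DESeq2 2 were lower in COMBO. Requiring an absolute log2 fold change of 1 left 1 gene higher in GSK and 1 in COMBO, and 0 in either direction in GDC, 0 lower in COMBO against GDC, 0 in COMBO against GSK and 0 in the interaction. Signs turned only for values that had not been called with TMM scaling and all libraries. AKR1C3 in GDC was -0.028 with DESeq2, -0.00033 with its size factors, -0.031 with no filter, -0.0010 with the replicate block and -1.97 to 0.66 without a library, and its interaction was -0.56 to 2.06 without a library. SRD5A1 in GSK was -0.029 with DESeq2, -0.024 with its size factors, -0.075 with no filter and -0.051 to 0.029 without a library. HSD17B4 in COMBO against GDC was 0.13 with library totals, 0.025 with a filter at 1 CPM and -0.064 to 0.011 without a library, and UGT2B15 in COMBO against GSK was -0.49 to 0.068 without a library. The causes were not tested. Whether the replicate letters pair the plates was not settled. Of 18 same-letter pairs, 2 correlated over 0.1 (range -0.0839 to 0.188, median -0.0218), beside 1 of 36 other pairs (-0.146 to 0.104, median -0.0095). The same-letter pairs of GDC and COMBO were at 0.116, 0.188 and 0.0727 for A, B and C. The replicate block changed no call. Levels per length depend on the length chosen, most for HSD17B4 and AKR1C3. Depth limits UGT2B7, UGT2B10, UGT2B17 and UGT2B28, which had 14 counts or fewer in each arm.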
